A study of Rattus norvegicus with 6 samples.

Results

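Brain microvascular endothelial cells form the wall of the blood–brain barrier, and iron reaches the brain across them. To describe how genes of iron uptake, storage and export stood in these cells with and without homocysteine (Hcy, a sulfur amino acid made from methionine), 9 genes were chosen by symbol from the 33566 rows of the deposited count table. They were Tfrc, Slc11a2 and Steap3 for uptake, Fth1, Ftl1 and Ncoa4 for storage, Slc40a1 for export, and Ireb2 and Aco1 for regulation. RNA had been sequenced from primary rat brain microvascular endothelial cells (rBMECs) of Sprague-Dawley rats aged 18 to 22 days, purified with a screening solution and used after 1 passage. The Hcy group and the vehicle (Veh) group had 3 libraries each. The sample labels give 100 μM Hcy for 24 h, whereas the treatment notes describe a 50 μM solution made in sterile water, the vehicle, so the dose is given here as labelled and unresolved. The age, purification and passage were shared by both groups. The labels call the libraries biological replicates but do not tie them to separate animals or cultures, so the tests measure the spread between these libraries.

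Endothelial cells take up iron mainly as iron-loaded transferrin. The transferrin receptor carries it into an endosome, a reductase of the STEAP family converts the released iron to its ferrous form, and the transporter DMT1 moves it into the cytosol. Iron that is not used is stored inside ferritin, a shell of heavy and light chains that NCOA4 can deliver to lysosomes, and ferroportin is the exporter of ferrous iron. The iron regulatory proteins bind short hairpins in target mRNAs when iron is scarce, which stabilizes transferrin receptor mRNA and holds back translation of ferritin and ferroportin.

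By deposited symbol, none of the 9 iron genes passed the test between Hcy and Veh. Only 7 of the 9 had the 10 counts, summed over the 6 libraries, needed to be tested. Passing was set at an adjusted p of at most 0.05 in the quasi-likelihood test of edgeR, adjusted by the Benjamini-Hochberg method over all 14603 tested genes. The smallest adjusted p among the 7 was 0.464 (edgeR). Over all tested genes, 341 or 2.34% passed in either direction and 148 or 1.01% passed as lower in Hcy. With a log2 fold change of at least 1 in size required as well, the study's threshold, 71 genes or 0.486% qualified, and none of the 7 did. At an unadjusted p under 0.05 stood 13.4% of tested genes and again 0 of the 7, and DESeq2 also called 0 of the 7. These counts hold for rows by deposited symbol. The row LOC100360087, which by its neighbours is Ftl1 in RefSeq and is described with the ferritin rows, had an unadjusted p of 0.00372 in edgeR and passed with DESeq2. Fold changes are Hcy relative to Veh on the log2 scale. Of the 7, 3 were higher and 4 lower in Hcy, with a median log2 fold change of -0.048 beside -0.015 over all tested genes. Hcy and Veh did not overlap for 2 of the 7, Slc11a2 and Steap3, against 20.1% of all tested genes.

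The libraries held between 14024997 and 16764584 counts, and 3 counts corresponded to 0.178 to 0.215 CPM (counts scaled to library size) per library. Levels below are CPM scaled by edgeR's trimmed mean of M-values (TMM), whose factors ran from 0.977 to 1.02. Endothelial markers summed to 10500 to 10900 CPM in Hcy and 8999 to 10410 CPM in Veh, 0 of 11 tested rows passed, and Cldn5, a tight junction gene on that list, was listed at 0. Pecam1 had no row under its symbol, and a row matched to it through its protein entry held 1102 ± 53.6 CPM in Hcy and 869.5 ± 67.5 in Veh (SD, n = 3). Markers of pericytes and smooth muscle summed to 681.2 to 708.1 CPM in Hcy and 1124 to 1352 in Veh, a sum made up mostly of Tagln (582 CPM in Hcy and 1071 in Veh). Of their 11 tested genes 3 passed, all lower in Hcy, beside 1.01% of all tested genes in that direction. These 3 were the contractile genes Tagln, Acta2 and Cnn1. Of the 11, 6 had values above and 5 below 0, with a median log2 fold change of 0.44. The pericyte markers Cspg4 (1.66), Rgs5 (1.26) and Pdgfrb (0.72) had positive log2 fold changes and Kcnj8 (-0.99) a negative one, none of which passed, each at under 3 CPM in both group means. Summed fibroblast markers ranged from 35.7 to 57.8 CPM in Hcy and from 57.5 to 83.9 in Veh, with 0 of 3 tested genes passing and Dpt at 0. Astrocyte, microglial and choroid plexus lists stayed at or below 3.09 CPM in every library, with Aqp4, Slc1a2, P2ry12, Cx3cr1 and Ptprc at 0. Oligodendrocyte markers summed to 10.6 to 12.4 CPM and neuron markers to between 5.23 and 9.77 CPM, with Mag, Snap25, Map2 and Rbfox3 at 0. Whether the marker rows at 0, Cldn5 among them, hold all reads of their genes was not tested, so they do not show that the genes are silent. Barrier markers summed to 698.4 to 782.4 CPM in Hcy and 814.3 to 853.6 in Veh. Of 6 tested, 5 were lower and 1 higher, with a median log2 fold change of -0.38, and 2 passed beside the 2.34% of all tested genes, Lsr, which fell (-0.73), and the amino acid transporter Slc7a5, which rose (0.40). In bulk RNA, fewer cells of a type and less RNA per cell cannot be told apart, and the part of these shifts in the iron gene values was not tested.

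**Figure D1:**
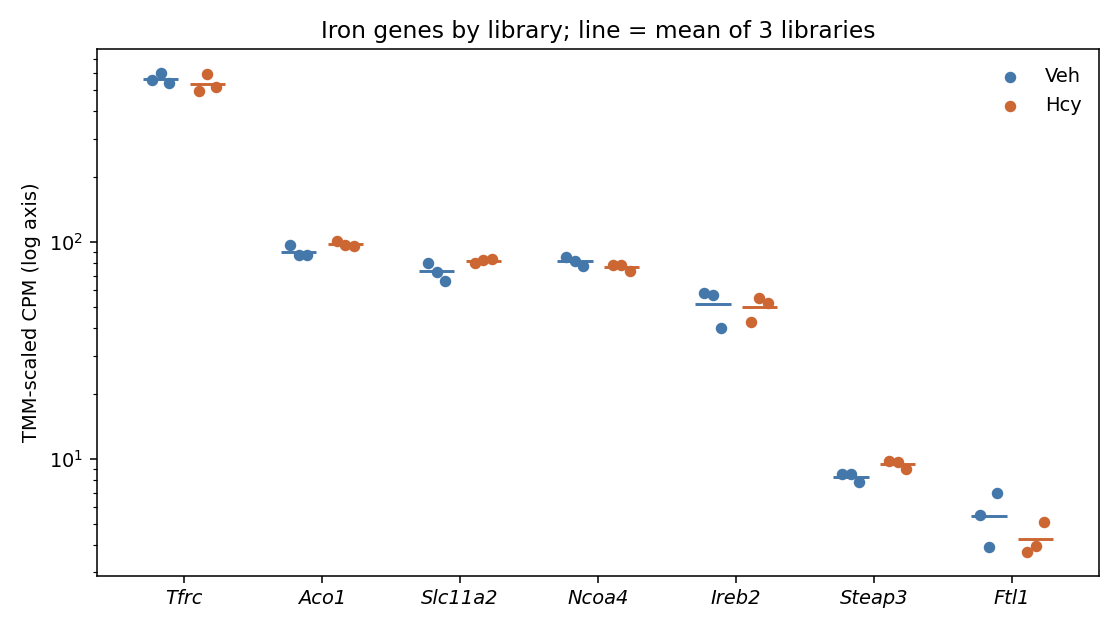
TMM-scaled CPM on a log axis of the 7 tested iron genes in each of the 3 Veh and 3 Hcy libraries, with a line at each group mean. Tfrc stands between 498.2 and 599.1 CPM, and the Hcy and Veh points are separate only for Slc11a2 and Steap3.

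The promoters below show the sequence just before the start of 3 of these genes. Tfrc was chosen as the row with the most counts of the 9 by deposited symbol. Slc40a1 was chosen as the exporter, with 5 counts in all, and Ncoa4 as the only member with both motifs searched. The promoters are the 250 bases before the gene start in RefSeq, assembly GRCr8, which is not the source of the deposited positions. Capitals mark matches, on either strand, to ACGTG, the core of hypoxia response elements, and to TGACNNNGC, the core of antioxidant response elements.
Tfrc promoter, chr11:81690319-81690568, minus strand: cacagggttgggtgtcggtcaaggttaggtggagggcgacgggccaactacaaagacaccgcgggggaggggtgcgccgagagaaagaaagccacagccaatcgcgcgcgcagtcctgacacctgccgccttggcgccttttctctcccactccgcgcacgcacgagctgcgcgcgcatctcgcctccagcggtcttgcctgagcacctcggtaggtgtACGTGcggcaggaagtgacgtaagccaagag
Ncoa4 promoter, chr16:7401541-7401790, plus strand: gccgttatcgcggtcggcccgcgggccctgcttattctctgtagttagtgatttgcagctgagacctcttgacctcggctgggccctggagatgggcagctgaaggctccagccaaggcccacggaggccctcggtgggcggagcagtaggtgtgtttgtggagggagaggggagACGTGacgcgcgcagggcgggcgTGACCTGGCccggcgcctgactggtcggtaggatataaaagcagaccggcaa
Slc40a1 promoter, chr9:55543461-55543710, minus strand: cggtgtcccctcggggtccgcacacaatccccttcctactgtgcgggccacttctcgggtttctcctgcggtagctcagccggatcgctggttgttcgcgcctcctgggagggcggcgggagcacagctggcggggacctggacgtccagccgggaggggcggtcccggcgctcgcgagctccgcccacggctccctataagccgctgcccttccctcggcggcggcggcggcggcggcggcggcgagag
Of the 9 genes, 7 had a promoter entry, with 8 entries in all because Slc11a2 has 2 starts. ACGTG was found in Tfrc, beginning 31 bases before the start, and in Ncoa4, beginning 75 bases before it. TGACNNNGC was found in Ncoa4 alone, 52 bases before the start. Over all 33469 promoters of the same length, 16.6% held ACGTG and 10.1% held TGACNNNGC. The 3 promoters had GC contents of 64.8%, 64.8% and 74.0% in the order printed. The matches are a description of these letters and not of binding.

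For uptake, Tfrc, the transferrin receptor (chromosome 11, 71397383 to 71419223, minus strand), had the highest level of the 9 rows as the deposited symbols name them. Its counts were 6938, 8889 and 8675 in Hcy and 9430, 9402 and 7800 in Veh, or 498.2, 597.1 and 517.8 CPM against 559.8, 599.1 and 539.9 CPM. The groups overlapped, with Hcy replicate 2 beside the highest Veh library. The means were 537.7 ± 52.3 CPM in Hcy and 566.3 ± 30.1 in Veh (SD, n = 3), a log2 fold change of -0.075 (SE 0.084, edgeR adjusted p = 0.783). The 95% interval of the fold ran from 0.832 to 1.08. When a library was left out the log2 fold change was nearer 0 without Hcy replicate 1 (-0.023), Hcy replicate 3 (-0.049) or Veh replicate 2 (-0.034). It was further from 0 without Hcy replicate 2 (-0.157), Veh replicate 1 (-0.082) or Veh replicate 3 (-0.108).

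Slc11a2, which encodes DMT1 (chromosome 7, 142025815 to 142063212, minus strand), had the smallest p of the members. Its levels were 80.5, 82.5 and 83.5 CPM in Hcy and 80.3, 72.9 and 66.5 CPM in Veh. Every Hcy library was above every Veh library, but the lowest Hcy and highest Veh values were nearly equal. The log2 fold change was 0.17 (SE 0.085, 95% interval -0.03 to 0.36), with an unadjusted p of 0.0823 and an adjusted p of 0.464 in edgeR. Without Veh replicate 3 it was 0.10. The table gives a single row for the gene, so transcripts from its 2 RefSeq starts could not be separated.

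Steap3, an endosomal ferrireductase (chromosome 13, 36257112 to 36290531, minus strand), was expressed at a much lower level. It had 9.77, 9.74 and 9.01 CPM in Hcy and 8.49, 8.54 and 7.82 CPM in Veh. The groups did not overlap, yet the log2 fold change of 0.20 (SE 0.127, 95% interval -0.09 to 0.49) did not pass (edgeR adjusted p = 0.578).

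For export, Slc40a1, which encodes ferroportin (chromosome 9, 52820683 to 52830457, minus strand), was nearly absent from the counts. It had 5 counts in Hcy replicate 2 and 0 in each of the other 5 libraries. Summed over the group, this was 0.11 CPM in Hcy, with an exact Poisson 95% interval of 0.0356 to 0.256. The 0 counts in Veh allow up to 0.0639 CPM over the group. These limits cover counting error only, and no fold or test is given. Whether this row holds all reads of the gene was not tested.

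Of the regulators, Aco1, the cytosolic aconitase that becomes iron regulatory protein 1 when it loses its iron-sulfur cluster (chromosome 5, 56425024 to 56481218, plus strand), was at 101.1, 96.5 and 95.7 CPM in Hcy and at 96.6, 86.8 and 87.2 CPM in Veh. Veh replicate 1 lay within the Hcy range. The log2 fold change was 0.12 (SE 0.075, 95% interval -0.055 to 0.286, edgeR adjusted p = 0.581).

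Ireb2, iron regulatory protein 2, which is degraded when iron is plentiful (chromosome 8, 59420123 to 59501118, plus strand), was the most variable of the well counted members. It had 42.9, 55.2 and 52.3 CPM in Hcy and 58.2, 56.9 and 40.4 CPM in Veh. The lowest library of all was in Veh and the next lowest in Hcy. The log2 fold change of -0.05 (SE 0.148, 95% interval -0.38 to 0.29, edgeR adjusted p = 0.935) changed sign without Hcy replicate 1 (0.052), Veh replicate 1 (0.045) or Veh replicate 2 (0.022).

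For storage, Ncoa4, the cargo receptor that carries ferritin to lysosomes (chromosome 16, 8302950 to 8323293, plus strand), had 78.2, 78.2 and 73.3 CPM in Hcy and 85.1, 81.9 and 77.5 CPM in Veh. Veh replicate 3 was below 2 of the Hcy libraries. The log2 fold change was -0.09 (SE 0.074, 95% interval -0.26 to 0.08, edgeR adjusted p = 0.679), and -0.057 without Veh replicate 1.

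**Figure D2:**
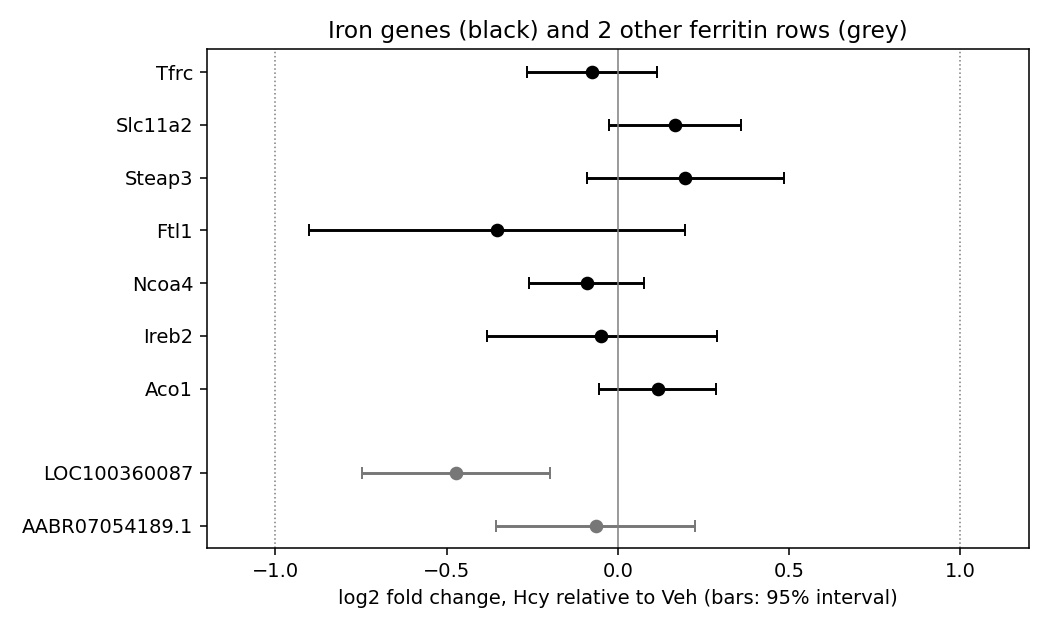
Log2 fold change of Hcy relative to Veh with its 95% interval for the 7 tested iron genes (black) and for 2 rows annotated as ferritin chains under other names (grey), with dotted lines at a log2 fold change of 1 in either direction. All 7 black intervals include 0 and none reaches a dotted line, while the interval of LOC100360087 runs from -0.75 to -0.20.

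Across the 5 members with over 1000 counts in all, no 95% interval reached further than 0.38 from 0 on the log2 scale, and the plot of fold changes shows that every tested member's interval stayed inside a log2 fold change of 1 in size. Compared per length, as CPM per kilobase of the deposited gene length (RPKM), the order of mean levels in Veh was Tfrc with 118.3, Aco1 with 26.03, Ncoa4 with 23.6, Ireb2 with 15.3, Slc11a2 with 13.9, Ftl1 with 6.04 and Steap3 with 2.76. In Hcy, Slc11a2 with 15.6 stood above Ireb2 with 14.8, and the order was otherwise the same. This order holds for rows by deposited symbol, and LOC100360087, which by its neighbours is Ftl1 in RefSeq, stood above Tfrc. The place of the heavy chain is not settled. The library values of Ireb2 and Slc11a2 overlapped in both groups, so this pair has no clear order. Every Aco1 library was above every Ncoa4 library, with lowest and highest values of 25.1 and 24.6 RPKM, so those neighbours were separate by a small margin.

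The ferritin rows need care, because the symbols Fth1 and Ftl1 did not hold the reads annotated as ferritin. Fth1, the ferritin heavy chain (chromosome 1, 226030938 to 226033228, plus strand), was listed at 0 in all 6 libraries. It lies wholly inside Best1, a gene on the minus strand that had 19, 43 and 25 counts in Hcy and 29, 30 and 16 in Veh. In the table, 273 of 583 protein-coding rows that lie inside a coding gene of the other strand were at 0, or 46.8%, against 28.1% of the other 21667 protein-coding rows. Whether this position has a part in the 0 of Fth1 was not tested. A count of 0 allows up to 0.0658 CPM in Hcy and 0.0639 CPM in Veh for counting error alone. Ferritin heavy chain is made by nearly every cell, so this row says nothing of its level. Whether counting used the strand, and what was done with reads that match several places, are not given in the sources used here.

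The row named Ftl1, for the ferritin light chain, (chromosome 5, 152325871 to 152326778, plus strand) held few reads. Its counts were 52, 59 and 86 in Hcy and 93, 62 and 101 in Veh, or 3.73, 3.96 and 5.13 CPM against 5.52, 3.95 and 6.99 CPM. The groups overlapped at Veh replicate 2. The log2 fold change was -0.35 (SE 0.243, 95% interval -0.90 to 0.20, edgeR adjusted p = 0.604), the widest interval of the 7. It was -0.145 without Veh replicate 3, -0.544 without Veh replicate 2, and it did not pass in either case.

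Most light chain reads stood in another row, LOC100360087 (chromosome 1, 101448346 to 101449829, minus strand). It carries the same ferritin light chain protein entry as the Ftl1 row. Its nearest named neighbours in the table are Ruvbl2, Gys1, Bax and Dhdh, and these are 4 of 4 neighbours of Ftl1 in RefSeq GRCr8. The row named Ftl1 lies among Crybg2, Cd52, Ubxn11 and Sh3bgrl3, which are 4 of 4 neighbours of LOC100360087 in RefSeq. Under their own names the rows shared 0 of 4 neighbours, so the 2 symbols are exchanged between the tables. LOC100360087 held 98.1% of all counts in rows annotated as ferritin light chain.

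**Figure D3:**
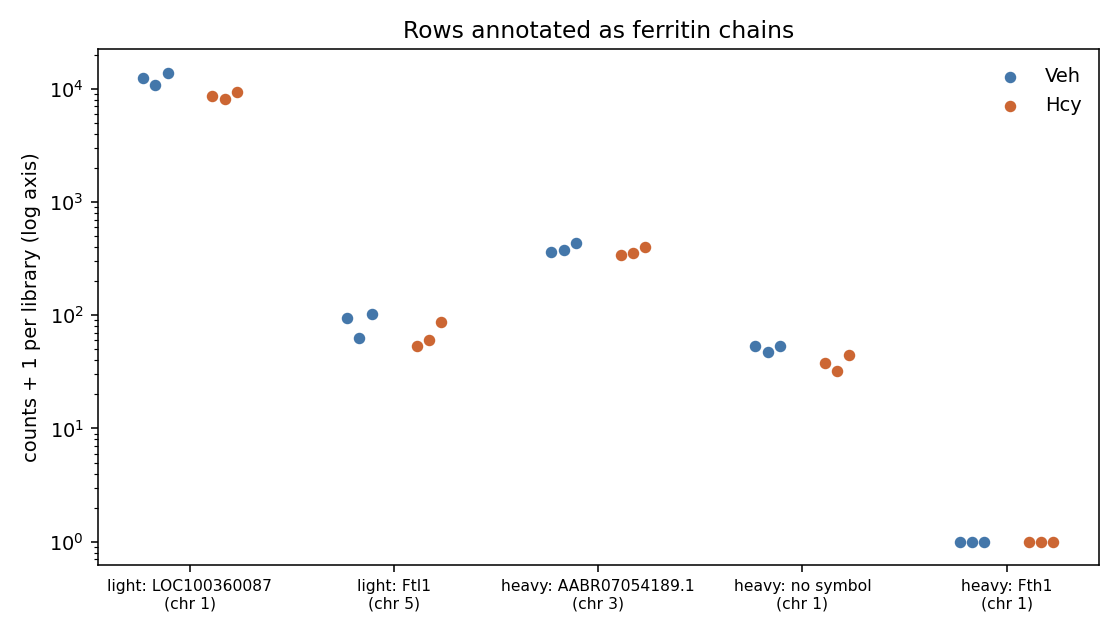
Counts plus 1, on a log axis, of 2 light chain rows and 3 heavy chain rows of the table, in the 3 Veh and 3 Hcy libraries. LOC100360087 holds between 8056 and 13811 counts, the Ftl1 row between 52 and 101, and Fth1 is at 0 in every library.

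LOC100360087 was chosen after its values were seen. Its counts were 8635, 8056 and 9276 in Hcy and 12507, 10698 and 13811 in Veh, or 620.1, 541.1 and 553.6 CPM against 742.5, 681.6 and 956.0 CPM. Every Hcy library was below every Veh library, and Veh replicate 3 was the highest. The means were 571.6 ± 42.5 CPM and 793.4 ± 144 CPM (SD, n = 3), with a log2 fold change of -0.47 (SE 0.122, 95% interval -0.75 to -0.20). This did not pass in edgeR (adjusted p = 0.0985, unadjusted p = 0.00372), and it did with DESeq2 (adjusted p = 0.00518) and, in edgeR, without Veh replicate 3 (log2 fold change -0.32, adjusted p = 0.0208) or with no filter on low counts (adjusted p = 0.0283). Per length it stood at 1036 ± 76.9 RPKM in Hcy and 1437 ± 261 in Veh (SD, n = 3), above every member.

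A microRNA row that overlaps LOC100360087 held 39 to 51 counts per library. Summing the 32 light chain rows, 13 of them with counts, gave a log2 fold change of -0.47 (SE 0.121, edgeR adjusted p = 0.0992). Summing the 5 heavy chain rows, 2 of them with counts, gave 379, 386 and 440 counts in Hcy and 414, 423 and 486 in Veh. The heavy chain groups overlapped once scaled for depth, and the log2 fold change was -0.10 (SE 0.123, edgeR adjusted p = 0.803). Of the heavy chain counts, 89.6% were in AABR07054189.1, a processed pseudogene on chromosome 3 from 143828611 to 143829156, where reads of Fth1 mRNA and of the pseudogene cannot be told apart. The rest were in a row with no symbol on chromosome 1 from 25038131 to 25078180, with 31 to 53 counts per library. The per-length ratio of Tfrc to LOC100360087 was 0.0927, 0.127 and 0.108 in Hcy and 0.0869, 0.101 and 0.0651 in Veh. Its means of 0.109 and 0.0845 gave p = 0.2 in a two-sided exact permutation test, where 3 against 3 libraries allow no p below 0.1.

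To place the members among related genes, 77 further genes of iron and haem handling were listed in 4 groups, of which 72 rows could be tested. Of these, 2 passed, a share close to the 2.34% over all tested genes. Both were lower in Hcy and on the haem list, and the median log2 fold change over the 72 was -0.05. Of other iron transport and binding genes, 0 of 17 tested rows passed, with 7 higher and 10 lower and a median of -0.02. Lcn2, a secreted protein that binds iron-carrying siderophores, was at 308 ± 11.4 CPM in Hcy and 248 ± 22.8 in Veh (SD, n = 3), a log2 fold change of 0.31 (SE 0.081, edgeR adjusted p = 0.0992). It passed with DESeq2 (adjusted p = 0.0169) and, in edgeR, without Veh replicate 3 (adjusted p = 0.00272). Lcn2 did not pass with a replicate block (edgeR adjusted p = 0.113). Nor did it pass without any other library (edgeR adjusted p from 0.228 to 0.333). Cybrd1, a ferric reductase, was at 3.00 ± 0.212 CPM in Hcy and 1.97 ± 0.161 in Veh (SD, n = 3), with no overlap of groups and a log2 fold change of 0.61 (SE 0.216, edgeR adjusted p = 0.236).

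Of the iron regulation genes, 0 of 11 tested rows passed, with a median log2 fold change of 0.02. Fbxl5, the iron-sensing subunit that directs IREB2 to degradation, had a log2 fold change of 0.06 (SE 0.071, edgeR adjusted p = 0.791), and 0.03 without Hcy replicate 3 or 0.04 without Veh replicate 3. Skp1, a core part of the same ubiquitin ligase, had -0.09 (SE 0.089, edgeR adjusted p = 0.751). Without Veh replicate 3 the Skp1 value was 0.002.

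Of the iron-sulfur cluster genes, 0 of 23 tested rows passed, with 6 higher, 17 lower and a median log2 fold change of -0.05. Nfs1, the cysteine desulfurase that supplies the sulfur, was split over 2 rows on chromosome 3. The row from 152200936 to 152222647 had 1, 4 and 146 counts in Hcy and 195, 213 and 188 in Veh, so Hcy replicate 3 stood with the Veh libraries. Its log2 fold change was -2.02 (SE 0.934, edgeR adjusted p = 0.399) and was -6.13 without Hcy replicate 3 (adjusted p = 0.000962). Without any other library this row did not pass (edgeR adjusted p from 0.253 to 0.612). The row from 151665814 to 151688149 had 56, 1 and 3 counts in Hcy and 1, 1 and 158 in Veh. The rows summed to 57, 5 and 149 counts in Hcy and 196, 214 and 346 in Veh, a log2 fold change of -1.86 (SE 0.677, edgeR adjusted p = 0.25). Bola3, which helps deliver clusters to mitochondrial enzymes, had -0.23 (SE 0.11, edgeR adjusted p = 0.411).

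**Figure D4:**
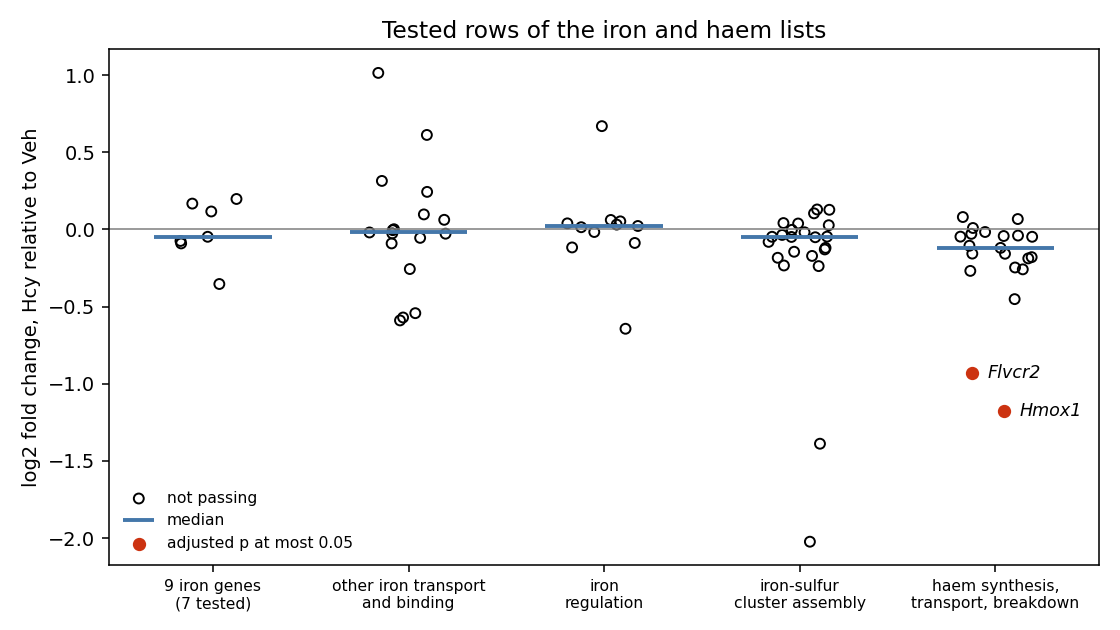
Log2 fold change of Hcy relative to Veh for each tested row of the 9 iron genes and of the 4 iron and haem lists, with list medians as lines and passing rows filled. Hmox1 at -1.17 and Flvcr2 at -0.93 are the filled points, and the medians lie between -0.12 and 0.02.

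Of the haem genes, 2 of 21 passed, both lower in Hcy, beside 2.34% of all tested genes in either direction and 1.01% in that direction. In this list 18 were lower and 3 higher, the median log2 fold change was -0.12, and the summed level was 777 to 819 CPM in Hcy against 900 to 962 in Veh. Hmox1, haem oxygenase 1, which frees iron from haem (chromosome 19, 14508616 to 14515456), fell from 101 ± 5.39 CPM in Veh to 44.6 ± 2.92 in Hcy (SD, n = 3), a log2 fold change of -1.17 (SE 0.083, edgeR adjusted p = 0.000355). Its counts were 639, 614 and 781 in Hcy and 1640, 1534 and 1544 in Veh, far apart. Flvcr2, a transporter of the FLVCR family (chromosome 6, 109617355 to 109681495), fell from 19.7 ± 0.41 CPM in Veh to 10.3 ± 1.08 in Hcy (SD, n = 3), a log2 fold change of -0.93 (SE 0.117, edgeR adjusted p = 0.00613). Slc48a1, a lysosomal haem transporter, and Blvrb, a biliverdin reductase, had log2 fold changes of -0.27 and -0.45 that did not pass (edgeR adjusted p = 0.114 and 0.133). Hcy and Veh did not overlap for 6 of the 21 haem genes, Hmox1, Flvcr2, Slc48a1, Blvrb, Fech and Pgrmc1, beside 20.1% of all tested genes. The contractile genes Tagln, Acta2 and Cnn1 given above were lower in the same libraries. The summed CPM of the pericyte and smooth muscle list was also lower, but its median log2 fold change was 0.44. The part of these genes in the haem values was not tested.

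Slc11a2 served as the reference for likeness because it had the smallest p of the members. Over the 6 libraries and 12289 other genes, the Pearson r of log2(CPM + 1) with it was highest for Ypel1 (0.985), Egr1 (0.984), Sox7 (0.984), Edc3 (0.984) and Dazap2 (0.984). These are the top 5 of many correlations over 6 points that share their groups, so they are listed as a description. None of the 5 passed between groups, with log2 fold changes from 0.12 to 0.63.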

How the data were processed

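Gene-level read counts from paired-end poly(A) RNA-seq of 6 rBMEC libraries were analysed as deposited. The authors made these raw counts, and per the labels' processing notes the tools were fastp, HISAT2 2.2.1, StringTie 2.2.3, Cufflinks, featureCounts 2.0.6 and DESeq2 1.42.0, with mRatBN7.2 (rn7) as build. Which build the deposited gene positions follow was not settled, since on chromosome 1 they reach 282724300, and strand use is not given in the sources used here. A second table with the authors' normalized values, fold changes and p-values was not used.

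Of 33566 rows, 683 had no symbol. Genes with at least 10 summed counts (14603) were fitted on group in edgeR 4.0.16 (R 4.3.3) with TMM factors, glmQLFit and glmQLFTest, and p-values were adjusted by Benjamini-Hochberg. SE was the log2 fold change divided by the root of F, and 95% intervals used the fit's degrees of freedom. The procedure was tested on simulated data, but the outcome is not given here. CPM was TMM-scaled and RPKM used the deposited gene length. Ratios with Fth1 were left out because it was at 0, as was that of Slc40a1 to Tfrc.

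The members and the gene lists were chosen with earlier results of these data known. Named were all members, Hmox1, and in each list the passing genes (at most 5) or, with none, the 2 with the smallest p, plus 5 genes most like the member with the smallest p among those kept by filterByExpr. Slc48a1, Blvrb, LOC100360087 and the other ferritin rows were added after their values were seen. All 9 members matched the RefSeq GRCr8 gene table by symbol. Alternatives were DESeq2 1.42.0, its size factors, library totals, other filters, a prior count of 2, a replicate block, summed ferritin rows and leaving out each library.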

Additional observations from a re-analysis of the deposited data

How the results depend on the processing

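Of the 9 iron genes by deposited symbol, 0 passed under the main settings and under each of 12 alternatives. Over all genes, 341 passed, against 612 with DESeq2 and 80 to 957 when a library was left out, the last without Veh replicate 3. The 71 genes that also met the fold threshold became 109 with no filter on low counts and 39 to 112 when a library was left out, the last again without Veh replicate 3. The cause of these shifts was not tested. Leaving out a library moved the log2 fold change of Ireb2 between -0.197 and 0.052, changing its sign in 3 of 6 cases (0.052, 0.045 and 0.022), and that of Skp1 between -0.169 and 0.002. It also moved Tfrc (-0.157 to -0.023), Slc11a2 (0.102 to 0.239), Ftl1 (-0.544 to -0.145), Ncoa4 (-0.126 to -0.057) and Fbxl5 (0.03 to 0.09), with no change of sign. LOC100360087, the light chain row that by its neighbours is Ftl1 in RefSeq, was added after seeing the data. It passed at -0.47 with DESeq2, at -0.473 with no filter and at -0.317 without Veh replicate 3. It ranged from -0.573 to -0.317 when a library was left out and kept its direction throughout, with edgeR adjusted p up to 0.343. Other iron transport genes passing went from 0 to 1 (Lcn2) with DESeq2 and to between 0 and 1 without a library. Iron-sulfur rows passing went to between 0 and 1 (1 of the 2 Nfs1 rows, without Hcy replicate 3). Haem genes passing stayed at 2 or 3, and Hmox1 and Flvcr2 passed under all 12 alternatives, Flvcr2 with adjusted p up to 0.0417.

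Same-numbered Hcy and Veh libraries had correlations of -0.007, 0.238 and 0.058 between their deviations from the group means, so the numbers were not taken to pair them. With a replicate block, 298 genes and 0 members passed, and the log2 fold change of Slc11a2 was 0.171. Slc40a1, with 5 counts in all, and Fth1, with 0, were too low to be tested.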
